A study of Mus musculus with 14 samples.

Results

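The 10 MHC class II presentation genes of the mouse heart (H2-Aa, H2-Ab1, H2-Eb1, H2-DMa, H2-DMb1, H2-DMb2, H2-Oa, H2-Ob, Cd74 and Ciita) were chosen by symbol from the 54532 genes of the count table. They were selected on measured values, since earlier results of these data had shown their counts lower 1 day after irradiation and higher after 6 weeks, so the values of those contrasts are given as a description and no test of them is used as support. Bulk RNA was sequenced from the heart tissue of 14 male C57BL/6J mice of genotype WT, aged 8 weeks at irradiation, with 1 library per mouse. The irradiated mice had received 30 Gy of 60Co γ-rays to the front of the chest under anesthesia, with the rest of the body behind lead. Hearts were collected after 1 day from 3 irradiated mice (IRR_1d) and 3 that were not irradiated (Control_1d). Those of the later collection, 6 weeks on, came from 4 irradiated mice (IRR_6w) and 4 without irradiation (Control_6w). Each heart is a mixture of cell types, so fewer cells of a type and less RNA per cell cannot be told apart.

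MHC class II molecules hold peptides from engulfed or membrane proteins at the cell surface, where CD4+ T cells read them. An α chain (H2-Aa) pairs with a β chain (H2-Ab1) to form I-A, and H2-Eb1 encodes the β chain of I-E. Mice with the C57BL/6 haplotype carry a deletion at the gene for the I-E α chain and make no I-E at the surface. Cd74, the invariant chain, fills the groove of new class II molecules and leads them to the endosome, where H2-DM (H2-DMa with H2-DMb1 or H2-DMb2) exchanges the remaining Cd74 fragment for peptide. H2-DO (H2-Oa with H2-Ob) is an inhibitor of H2-DM that is known from B cells, thymic epithelium and some dendritic cells. Ciita is the coactivator that switches these genes on. It is active in B cells, dendritic cells and activated macrophages, and interferon-γ induces it in other cells.

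Of the 10 genes, 8 lie on chromosome 17 of mm10, within the class II region between H2-Oa and H2-Eb1. In the order of the deposited coordinates they are H2-Oa (ENSMUSG00000024334, chr17:34092340-34095234), H2-DMa (ENSMUSG00000037649, chr17:34135182-34139101), H2-DMb2 (ENSMUSG00000037548, chr17:34143307-34151553) and H2-DMb1 (ENSMUSG00000079547, chr17:34153072-34160230). Then follow H2-Ob (ENSMUSG00000041538, chr17:34238903-34245907), H2-Ab1 (ENSMUSG00000073421, chr17:34263209-34269418), H2-Aa (ENSMUSG00000036594, chr17:34282744-34287827) and H2-Eb1 (ENSMUSG00000060586, chr17:34305877-34316199). All of these are protein-coding genes on the plus strand except H2-Aa, which is on the minus strand. Cd74 and Ciita lie on other chromosomes.

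Class II promoters are known for a shared layout of boxes that RFX, CREB and NF-Y bind and on which Ciita acts. Promoters from RefSeq (GRCm38.p6, the bases around a gene's start) were matched by symbol and used for 7 of the 10 genes. None was used for H2-Ab1, Cd74 or Ciita, so the counts out of 7 say nothing of these genes. All 7 held GATTGG, the core of the NF-Y box, on either strand, and 16.1% of all 32851 promoters of this length did. GCAAC was found in 5 of 7, against 35.2% of all promoters. For H2-DMa 2 promoters were matched and a hit in either counted, and its GATTGG and GCAAC were in different promoters. GCAAC followed by GATTGG on the same strand with their starts 29 to 32 bases apart was found in H2-Aa, H2-Eb1, H2-Ob and H2-Oa, against 0.0944% of all promoters, and CNGATGATG was found in H2-Eb1, H2-DMb1 and H2-DMb2, against 0.956%. This spacing and the second motif were picked after these promoters had been read, and both strands were searched. GATTGG contains ATTGG, which 7 of 7 and 37.4% of all promoters held. AGCAACAG was in 0 of 7, against 2.26% of all promoters. The windows below run from 140 to 31 bases before the RefSeq start. They are shown for the genes that hold the spaced pair or the second motif. The RefSeq starts can differ from the deposited ones printed above. By the deposited coordinates the H2-DMb2 window lies inside the gene, and those of H2-DMb1 and H2-Oa run across the start of their gene. H2-DMb1 and H2-DMb2 lack GCAAC in these windows. Capitals mark GCAAC, CNGATGATG and GATTGG, and in H2-Eb1 the first and second of these overlap. H2-Aa is read from the minus strand at chr17:34287854-34287963. The others are read from the plus strand, H2-Eb1 at chr17:34305727-34305836, H2-Ob at chr17:34238765-34238874, H2-Oa at chr17:34092239-34092348, H2-DMb1 at chr17:34153051-34153160 and H2-DMb2 at chr17:34145109-34145218.
H2-Aa: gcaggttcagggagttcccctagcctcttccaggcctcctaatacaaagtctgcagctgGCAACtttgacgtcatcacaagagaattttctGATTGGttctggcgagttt
H2-Eb1: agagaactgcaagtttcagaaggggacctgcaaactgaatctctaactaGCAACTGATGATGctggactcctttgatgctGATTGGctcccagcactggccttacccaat
H2-Ob: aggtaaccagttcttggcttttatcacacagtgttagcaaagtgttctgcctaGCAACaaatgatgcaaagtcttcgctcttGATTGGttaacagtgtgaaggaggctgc
H2-Oa: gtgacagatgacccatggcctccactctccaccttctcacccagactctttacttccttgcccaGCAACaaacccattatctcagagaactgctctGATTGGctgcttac
H2-DMb1: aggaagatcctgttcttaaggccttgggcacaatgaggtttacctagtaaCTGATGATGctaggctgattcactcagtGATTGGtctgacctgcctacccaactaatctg
H2-DMb2: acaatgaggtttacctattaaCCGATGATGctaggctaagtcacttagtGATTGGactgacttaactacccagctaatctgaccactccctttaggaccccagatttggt
A match is a description of these letters and was not tested for binding.

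Total counts per library ranged from 13336746 to 16837265. Cardiomyocyte genes (8 genes, among them Myh6 and Actc1) summed to between 5398 and 37019 CPM (the count scaled to a fixed library total) across the libraries, so the markers of the labelled tissue were present in each. Some libraries stood apart in RNA of other tissues. Control_6w replicate 3 had the lowest cardiomyocyte sum, a thymus sum of 3177.8 CPM over 10 genes, against at most 36.0 elsewhere, and a sum of 2570.5 CPM over 10 T and NK cell genes. IRR_6w replicate 1 had a lung epithelium sum of 509.9 CPM over 10 genes, against at most 40.0 elsewhere. In Control_1d replicate 1 and in IRR_6w replicates 3 and 4, 30.7, 21.6 and 8.62% of genes with 2 to 5 CPM in the other libraries had 0 counts, so zeros and low values there are less certain. Ucp1, the uncoupling protein of brown fat, was at 231, 559 and 808 CPM in IRR_1d replicate 3, Control_6w replicate 3 and IRR_6w replicate 1, and had 0 counts in the other 11 libraries.

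The class II chains were lower in each IRR_1d heart than in each Control_1d heart, and higher in each IRR_6w heart than in each Control_6w heart. H2-Aa was at 85.7, 33.5 and 52.7 CPM in Control_1d and at 23.6, 16.6 and 27.8 CPM in IRR_1d. At 6 weeks it was at 80.2, 109, 103 and 79.1 CPM in Control_6w and at 182, 289, 199.8 and 292 CPM in IRR_6w. The groups did not overlap at either time. In the edgeR fit the log2 fold change of H2-Aa was -1.36 (SE 0.287) at 1 day and 1.14 (SE 0.246) at 6 weeks. Its mean level between IRR_1d and IRR_6w went from 22.7 ± 5.64 (SD, n = 3) to 240.6 ± 57.9 CPM (SD, n = 4).

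H2-Ab1, the partner of H2-Aa in I-A, had the same order of groups at lower levels. It was at 33.1, 18.8 and 41.9 CPM in Control_1d, at 16.0, 10.01 and 16.3 CPM in IRR_1d, at 43.3, 62.7, 103 and 48.2 CPM in Control_6w, and at 116, 173, 151 and 123 CPM in IRR_6w. The gap at 1 day was narrow, between 18.8 and 16.3 CPM, and the highest 6-week control was the library rich in thymus RNA. The log2 fold change was -1.22 (SE 0.327) at 1 day and 0.94 (SE 0.280) at 6 weeks. The ratio of H2-Aa to H2-Ab1 CPM was 1.88 ± 0.67 in Control_1d and 1.61 ± 0.122 in IRR_1d, and at 6 weeks 1.56 ± 0.386 in controls and 1.74 ± 0.455 after irradiation (SD, n = 3, 3, 4 and 4). These ratios overlapped between the groups at each time.

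H2-Eb1 also had groups that did not overlap at either time. It was at 68.1, 27.6 and 52.2 CPM in Control_1d and at 20.97, 12.2 and 23.0 CPM in IRR_1d. In Control_6w its 4 values lay close together at 83.8, 80.5, 69.0 and 68.7 CPM, and in IRR_6w they were 153, 226.5, 252 and 287 CPM. The lowest IRR_6w value belonged to the library rich in lung epithelial and B cell RNA. The log2 fold change was -1.43 (SE 0.295) at 1 day and 1.35 (SE 0.253) at 6 weeks. The gene H2-Ea-ps, which stands for the I-E α chain in this annotation, had 0 counts in all 14 libraries, and each library's 0 allows up to 3 counts. H2-Eb2, a related β chain gene, had at most 4 counts in 11 libraries and 49, 20 and 14 counts in Control_6w replicate 3, IRR_6w replicate 1 and IRR_6w replicate 4.

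**Figure D1:**
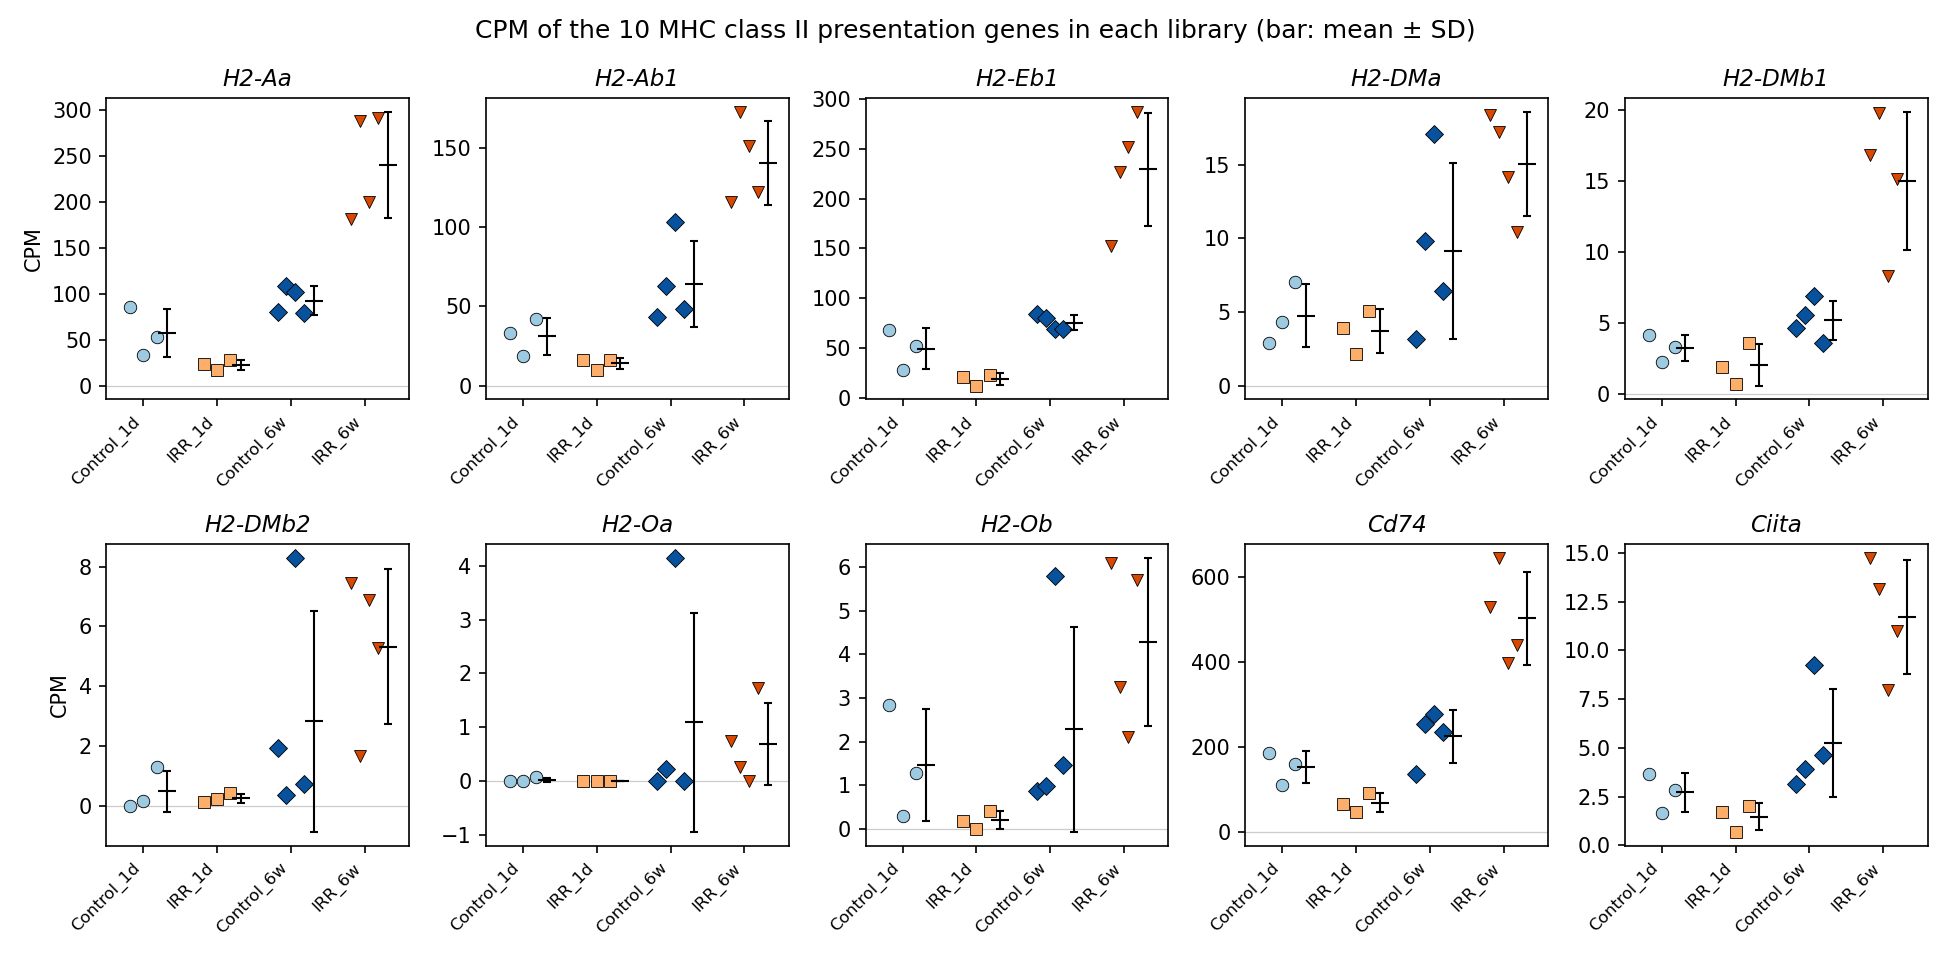
CPM by library total of each of the 10 genes in each of the 14 libraries on a linear axis, 1 symbol a library, by group, with the mean ± SD of the group to the right of its symbols (n = 3, 3, 4 and 4). H2-Aa, H2-Ab1, H2-Eb1 and Cd74 have no overlap between irradiated and control hearts at either time, while single control libraries reach the level of IRR_6w for H2-DMa, H2-DMb2, H2-Oa, H2-Ob and Ciita.

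Cd74 (ENSMUSG00000024610, on chromosome 18) was the most abundant of the genes per length in every group. Its mean level in FPKM, computed with the deposited gene length, was 108 ± 26.998 in the earlier controls and 48.6 ± 16.0 in IRR_1d, then 159.8 ± 44.1 in the later controls and 357 ± 77.5 in IRR_6w (SD, n = 3, 3, 4 and 4). In CPM it was at 186, 111 and 161 in Control_1d and at 65.9, 47.3 and 92.2 in IRR_1d. At 6 weeks the controls were at 136, 254, 277 and 235 CPM and the irradiated hearts at 529, 645, 398 and 440.1 CPM. The groups did not overlap at either time, and the fitted log2 fold change was -1.23 (SE 0.313) at 1 day and 0.94 (SE 0.269) at 6 weeks. Cd74 took 51.2 ± 3.96% of the CPM of the 10 genes in Control_1d and 51.9 ± 2.56% in IRR_1d, then 46.1 ± 6.03% in Control_6w and 43.1 ± 6.58% in IRR_6w (SD, n = 3, 3, 4 and 4), and at each time the irradiated and control hearts overlapped.

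The order of the levels per length was Cd74, H2-Eb1, H2-Aa and H2-Ab1 in each of the 4 groups. Cd74 lay above H2-Eb1, and H2-Ab1 above the genes of H2-DM, in every library of every group. The libraries of H2-Eb1, H2-Aa and H2-Ab1 overlapped as neighbours in that order in every group, while within a library H2-Eb1 lay above H2-Aa in 14 of 14 libraries and H2-Aa above H2-Ab1 in 13 of 14. H2-DMa and H2-DMb1 followed, with overlapping libraries, at 2.90 and 2.19 FPKM in Control_1d and at 9.17 and 10.1 FPKM in IRR_6w. Ciita, H2-DMb2, H2-Ob and H2-Oa were lowest, with no mean above 3.11 FPKM in any group. For most of the 10 genes the deposited lengths were shorter than the exon bases of GENCODE M21, and how they were taken was not stated, so levels between genes carry that uncertainty.

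Ciita (ENSMUSG00000022504, on chromosome 16), the coactivator of the whole set, was lower in the mean at 1 day and higher at 6 weeks, with overlap at both times. It was at 3.67, 1.68 and 2.82 CPM in Control_1d and at 1.72, 0.695 and 1.998 CPM in IRR_1d. At 6 weeks it was at 3.17, 3.90, 9.28 and 4.62 CPM in Control_6w and at 14.7, 13.2, 7.95 and 10.99 CPM in IRR_6w. A single pair of libraries made the overlap at 6 weeks, the control at 9.28 CPM and the irradiated heart at 7.95 CPM. The control was the library with thymus and T cell RNA, and the irradiated heart had many genes at 0 counts. Whether these traits bear on its Ciita level was not tested for either library. The log2 fold change was -0.95 (SE 0.535) at 1 day and 0.97 (SE 0.455) at 6 weeks. Of the exon bases of Ciita, 3.45% are shared with Dexi on the opposite strand.

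The genes of the peptide editor H2-DM differed from each other in how far they followed the chains. H2-DMb1, the main β chain, ranged from 2.27 to 4.15 CPM in Control_1d and 0.695 to 3.58 CPM in IRR_1d. The later values ranged from 3.63 to 6.91 CPM in the controls and 8.32 to 19.7 CPM after irradiation. Its groups overlapped at 1 day and did not overlap at 6 weeks, with log2 fold changes of -0.76 (SE 0.537) and 1.32 (SE 0.463). H2-DMa, the α chain, ranged from 2.91 to 7.05, 2.15 to 5.10, 3.17 to 17.1 and 10.5 to 18.4 CPM in the same order of groups. Its groups overlapped at both times, and its log2 fold changes of -0.51 (SE 0.568) and 0.55 (SE 0.486) were the smallest of the 10 genes. Of the exon bases of H2-DMa in GENCODE M21, 10.4% are shared with Brd2 on the opposite strand. By the deposited coordinates H2-DMa and Brd2 do not overlap. The strandedness of the counting was not stated.

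H2-DMb2, the second β chain gene of H2-DM, ranged from 0 to 1.28 CPM in Control_1d and 0.123 to 0.413 CPM in IRR_1d. At 6 weeks it ranged from 0.355 to 8.29 CPM in the controls and 1.66 to 7.44 CPM after irradiation. Its highest value was that of Control_6w replicate 3, and its groups overlapped at both times. H2-DMb1 and H2-DMb2 are near copies, and 11.3% of the 100-base windows of H2-DMb1 transcripts are also found in H2-DMb2, so their counts may have been split in part. Without Control_1d replicate 3, whose 1.28 CPM was the highest of its group, the log2 fold change of H2-DMb2 at 1 day went from -1.07 to 1.47.

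The genes of the H2-DM inhibitor H2-DO were at or near the limit of counting. H2-Oa had 0, 0 and 1 counts in Control_1d, 0 counts in each of the 3 IRR_1d libraries, 0, 3, 63 and 0 counts in Control_6w, and 11, 4, 0 and 29 counts in IRR_6w. Each 0 allows up to 3 counts, which are 0.185 to 0.208 CPM in the IRR_1d libraries. No fold change is given for H2-Oa at 1 day, and against this limit the mean of IRR_6w was at least 3.40-fold higher than IRR_1d, and at least 1.67-fold higher without IRR_6w replicate 4, which held 29 counts. The 63 counts came from the library with thymus RNA, and 22.8% of the exon bases of H2-Oa are shared with BC051537 on the opposite strand.

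H2-Ob, the other chain of H2-DO, was at 2.84, 0.292 and 1.28 CPM in Control_1d and at 0.18, 0 and 0.413 CPM in IRR_1d. At 6 weeks it was at 0.883, 0.993, 5.79 and 1.48 CPM in Control_6w and at 6.09, 3.26, 2.10 and 5.70 CPM in IRR_6w. At both times the highest control was the library richest in B cell RNA of its group. The log2 fold change was -2.84 (SE 1.13) at 1 day, where 9 counts in all were seen in IRR_1d, and 0.75 (SE 0.887) at 6 weeks.

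As a set, each of the 9 genes other than H2-Oa was lower in IRR_1d than in Control_1d by the fitted value, with a median log2 fold change of -1.22 and a range from -2.84 to -0.51. The median over all 16034 tested genes was 0.06. Of the 10 genes, 0 passed the edgeR rule for a call (a fold above 2 or under 0.5, with p adjusted by Benjamini and Hochberg across the tested genes and under 0.05), and 0.0249% of all tested genes did. At an unadjusted p under 0.05 with the same fold rule, 5 of the 10 passed with edgeR, against 2.23% of all tested genes. DESeq2 called 2, against 0.187% of all genes, and limma-voom 0, against 0%. In CPM 4 of the 10 had no overlap between the groups and were lower (H2-Aa, H2-Ab1, H2-Eb1 and Cd74), as did 1.97% of all tested genes. Since these genes were chosen for this contrast, nothing is read from these counts.

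At 6 weeks the same 9 genes were higher in IRR_6w than in Control_6w, with a median log2 fold change of 0.94 and a range from 0.55 to 1.35, beside a median of -0.09 over all tested genes. In the edgeR test 1 of the 10 was called, and 0.256% of all tested genes were. H2-Eb1 was this gene, and its call was lost in 11 of 14 fits that left out 1 library. It was kept without Control_1d replicate 1, IRR_1d replicate 3 or IRR_6w replicate 1. In CPM 5 of the 10 had no overlap and were higher (H2-Aa, H2-Ab1, H2-Eb1, H2-DMb1 and Cd74), against 6.63% of all tested genes.

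Between the irradiated groups, IRR_6w was above IRR_1d for all 10 genes. H2-Eb1, H2-Aa, H2-Ab1 and Cd74 were called as higher by edgeR, 4 of 10 against 0.0374% of all tested genes, with log2 fold changes of 3.32 (SE 0.307), 3.11 (SE 0.296), 3.03 (SE 0.337) and 2.60 (SE 0.317). The genes were chosen for low values in IRR_1d and high values in IRR_6w, so nothing is read from these calls, their share or their stability. The median of the 9 genes other than H2-Oa was 3.03, and with H2-Oa at its lower bound the median of the 10 was 2.87. In CPM 9 of 10 had no overlap, all but H2-Oa, against 10.7% of all tested genes. H2-Aa, H2-Ab1 and H2-Eb1 were called in every fit that left out 1 library, and the call of Cd74 was lost without IRR_1d replicate 1, without IRR_1d replicate 2 and in the fit of only the groups compared.

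**Figure D2:**
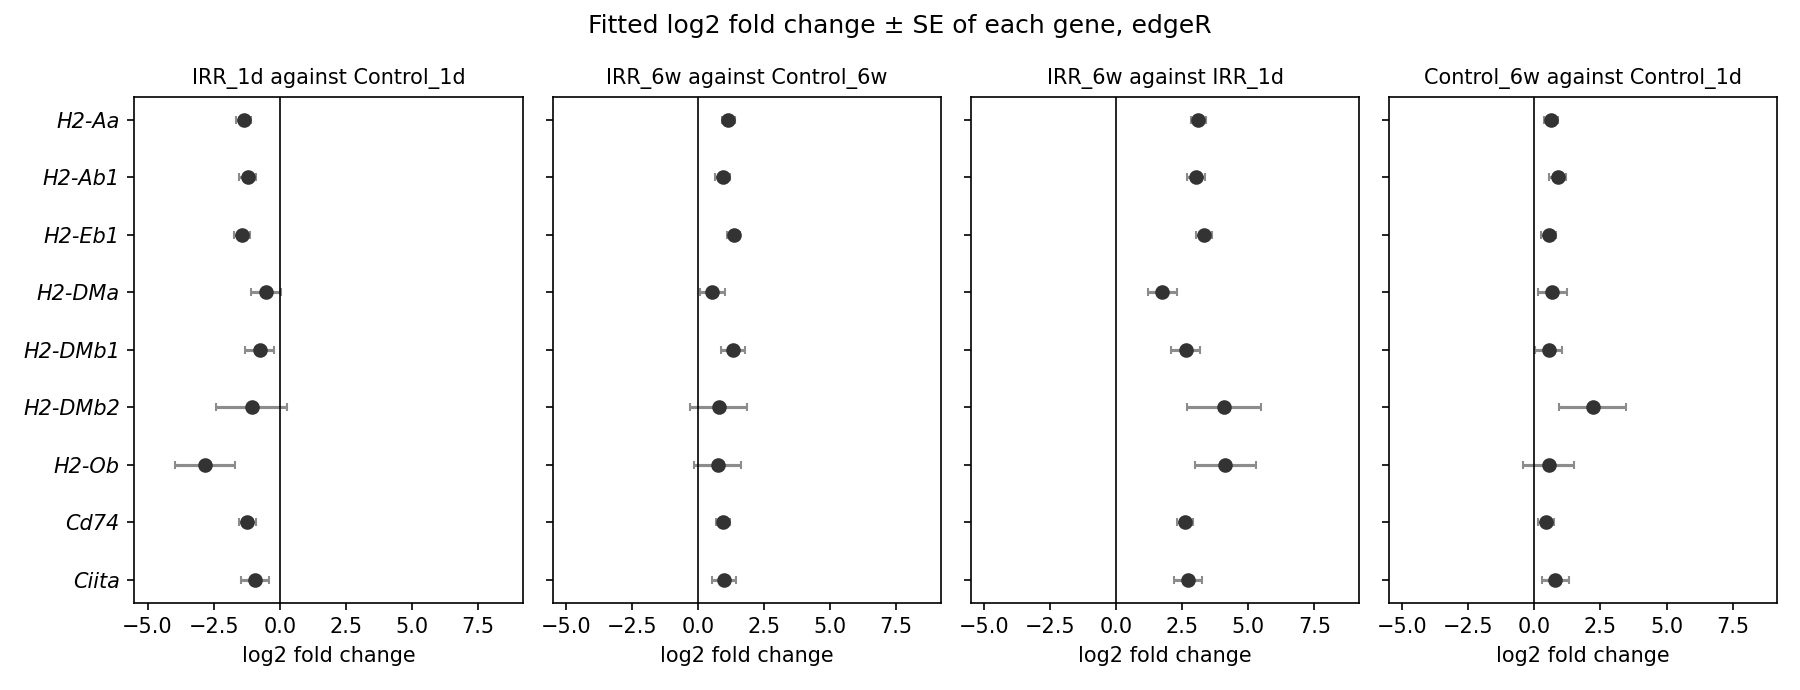
Fitted log2 fold change (point) and standard error (bar) of each of the 9 genes other than H2-Oa from the edgeR model of 14 libraries, for the irradiated against the control hearts at 1 day and 6 weeks and for 6 weeks against 1 day in irradiated and control hearts. The values are below 0 for each of the 9 genes at 1 day and above 0 for each at 6 weeks.

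The change in the irradiation effect, the fold change at 6 weeks less that at 1 day, was above 0 for each of the 9 genes other than H2-Oa, except that without Control_1d replicate 3 it was -0.70 for H2-DMb2. On the log2 scale it was 2.79 (SE 0.389) for H2-Eb1, 2.499 (SE 0.378) for H2-Aa, 2.17 (SE 0.413) for Cd74 and 2.16 (SE 0.431) for H2-Ab1. The smallest value, 1.06 (SE 0.747), was that of H2-DMa. With edgeR 0 of 10 were called, and 0% of all tested genes were. At an unadjusted p under 0.05 with the fold rule, 7 of 10 passed, against 2.86% of all tested genes. DESeq2 called 4, against 0.268%, and limma-voom 0, against 0%. The genes were chosen for this change, so nothing is read from these counts.

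The untreated hearts of the later collection were compared with those of the earlier, as a measure of what time, age and handling do without irradiation. This contrast did not choose the genes, but its libraries are the controls of both contrasts that did. The log2 fold change was 0.88 (SE 0.307, edgeR adjusted p = 0.902) for H2-Ab1, 0.61 (SE 0.266, edgeR adjusted p = 0.902) for H2-Aa, 0.53 (SE 0.273, edgeR adjusted p = 0.902) for H2-Eb1 and 0.43 (SE 0.291, edgeR adjusted p = 0.904) for Cd74. For the 9 genes other than H2-Oa the median was 0.61, beside 0.12 over all tested genes. With edgeR 0 of 10 were called, and 0% of all tested genes were. At an unadjusted p under 0.05 with the fold rule 0 of 10 passed, against 3.75% of all tested genes. Without the fold rule 2 of 10 passed it, a count given with no share over all genes, so nothing is read from it. DESeq2 called 0, against 0.168%, and limma-voom 0, against 0%. In CPM, H2-Ab1 and H2-Eb1 had no overlap and were higher in Control_6w, 2 of 10 against 5.77% of all tested genes. Both gaps were narrow, between 68.1 CPM in Control_1d and 68.7 CPM in Control_6w for H2-Eb1, and between 41.9 and 43.3 CPM for H2-Ab1. H2-Ob and H2-DMa were not stable in direction here, since H2-Ob went from 0.54 to -0.31 without Control_6w replicate 3, and H2-DMa from 0.68 to -0.02 without the 3 libraries richest in B cell RNA.

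B cells carry class II at rest and circulate through the heart, so the class II genes were set beside 21 B cell genes in each library. The summed B cell CPM was 405.9, 21.4 and 43.3 in Control_1d and 17.8, 25.2 and 19.3 in IRR_1d. At 6 weeks it was 39.4, 27.7, 797 and 39.3 in Control_6w and 1119.8, 88.1, 119.6 and 85.5 in IRR_6w. A single library in each group except IRR_1d held most of the B cell RNA. The difference of the log2 sums was -1.81 at 1 day (exact permutation test, two-sided, p = 0.2, n = 3 and 3, where 0.1 is the smallest p possible) and 1.22 at 6 weeks (exact permutation test, two-sided, p = 0.4, n = 4 and 4). Adjusted over these 2 tests both p were 0.4. Without the immunoglobulin genes the B cell sums did not overlap at 1 day, at 45.5, 8.26 and 17.2 CPM in Control_1d against 6.70, 6.46 and 7.78 CPM in IRR_1d (log2 difference -1.42, exact permutation test, two-sided, p = 0.1, the smallest p possible). B cell RNA by this measure was thus also lower in each IRR_1d heart.

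The summed CPM of the 10 class II genes was 386, 199.7 and 324 in Control_1d and 134, 89.8 and 171 in IRR_1d. It was 357, 527, 603 and 447 in Control_6w and 1043.7, 1389, 1040.3 and 1191 in IRR_6w. The library richest in B cell RNA had the highest class II sum of Control_1d and of Control_6w, and next to the lowest of IRR_6w. The class II sums did not overlap between irradiated and control hearts at either time.

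The ratio of class II to B cell CPM was therefore set by those libraries. It was 0.952, 9.32 and 7.48 in Control_1d, 7.56, 3.56 and 8.85 in IRR_1d, 9.06, 19.0, 0.757 and 11.4 in Control_6w, and 0.932, 15.8, 8.70 and 13.9 in IRR_6w. The groups overlapped at both times, and the mean log2 ratio differed by 0.61 at 1 day and by 0.07 at 6 weeks. These directions rested on single libraries, since the difference was -0.43 at 1 day without Control_1d replicate 1, and at 6 weeks -0.95 without Control_6w replicate 3 and 1.00 without IRR_6w replicate 1. It was below 0 at 6 weeks also without IRR_6w replicate 2, 3 or 4. Without the immunoglobulin genes, which made 57.0 to 93.5% of the B cell sum, the ratio was 8.49, 24.2 and 18.8 in Control_1d, 20.05, 13.9 and 21.9 in IRR_1d, 21.8, 44.2, 11.6 and 28.8 in Control_6w, and 7.63, 49.4, 34.9 and 39.2 in IRR_6w. These also overlapped at both times.

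With the library richest in B cell RNA left out of each of the 3 groups that had 1, the B cell sums at 1 day still overlapped, 21.4 and 43.3 against 17.8 to 25.2 CPM, while class II was at 199.7 and 324 against 89.8 to 171 CPM. At 6 weeks the B cell sums then no longer overlapped, 27.7 to 39.4 against 85.5 to 119.6 CPM, beside class II at 357 to 527 against 1040.3 to 1389 CPM. The log2 difference of B cell RNA was then -0.57 at 1 day and 1.46 at 6 weeks, given with no test since the libraries were left out for their B cell RNA, the control library with the most of it among them at each time. In the fit without these 3 libraries, which was chosen after the data were seen, the median log2 fold change of the class II genes was -1.23 at 1 day and 1.24 at 6 weeks, over 9 tested genes. With log2 B cell RNA as a covariate in the fit of all libraries it was -1.01 and 0.88, over 10 tested genes with H2-Oa among them. The part of B cells in the class II differences was not tested.

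**Figure D3:**
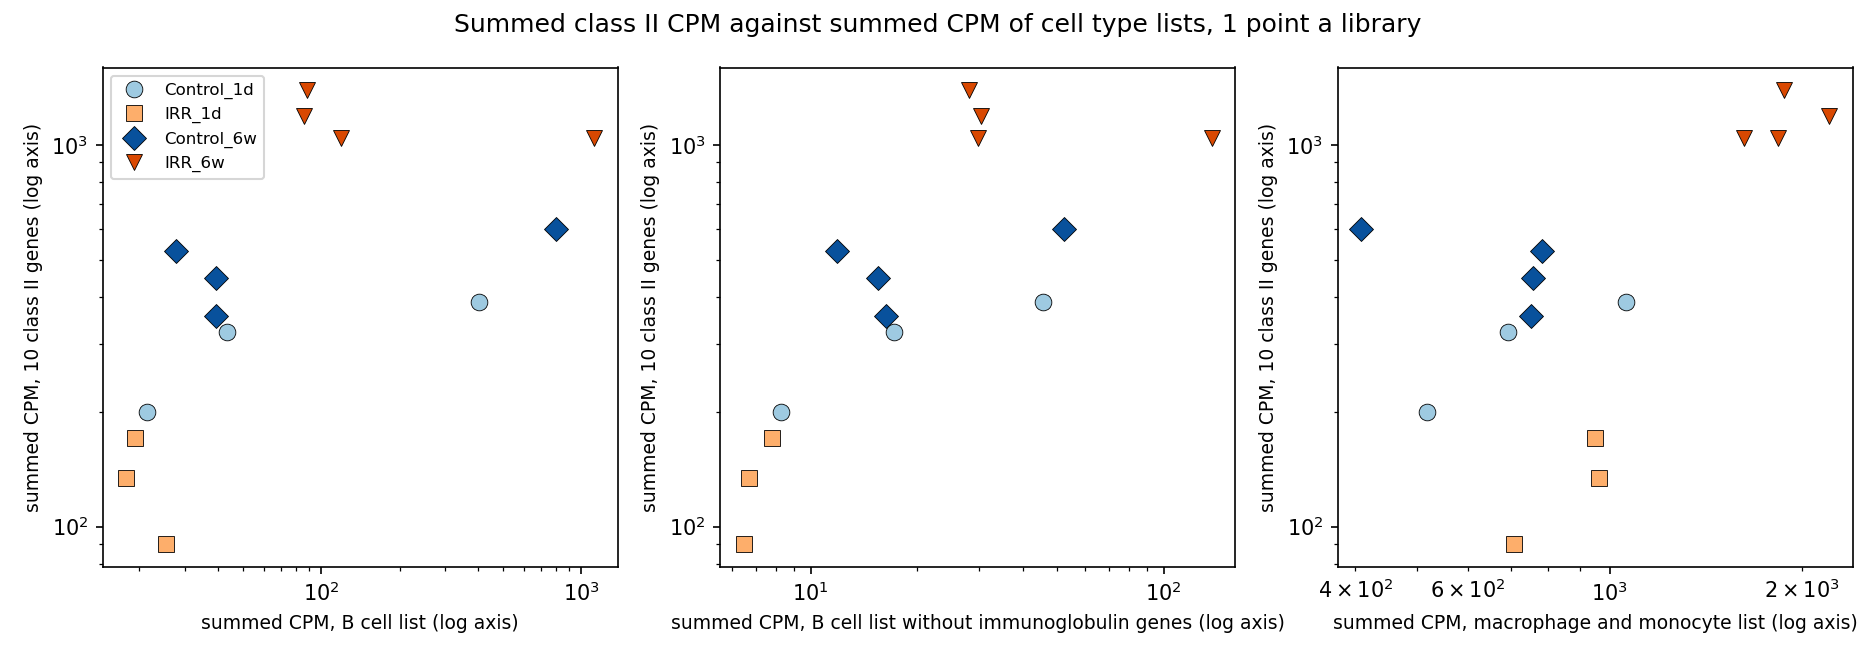
Summed CPM of the 10 class II genes (vertical) against the summed CPM of B cell genes, of B cell genes without immunoglobulin genes, and of macrophage and monocyte genes (horizontal), both on log axes, 1 point a library, by group. The IRR_1d libraries lie lowest in class II and, without immunoglobulin genes, also in B cell RNA, the IRR_6w libraries lie highest in class II, and in the macrophage panel the IRR_1d libraries lie below controls of like macrophage RNA.

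Macrophage RNA did not share the lower values of class II at 1 day. The summed CPM of 17 macrophage and monocyte genes was 756.8 ± 276 in Control_1d and 873 ± 144 in IRR_1d (SD, n = 3 and 3), and the class II sum per macrophage CPM was 0.365, 0.385 and 0.467 in Control_1d against 0.140, 0.127 and 0.180 in IRR_1d. That ratio did not overlap, so class II was lower in IRR_1d also relative to macrophage RNA. At 6 weeks the macrophage sum was 676 ± 179 in Control_6w and 1886 ± 241 in IRR_6w (SD, n = 4 and 4), and the ratio was 0.474, 0.671, 1.48 and 0.590 in Control_6w against 0.643, 0.741, 0.566 and 0.540 in IRR_6w. Here the ratios overlapped, and the mean log2 ratio differed by -0.23. The ratio of 1.48 was that of Control_6w replicate 3, rich in thymus RNA, and without it the difference was 0.11. From 1 day to 6 weeks the log2 ratio was 2.07 higher in irradiated hearts and 0.85 higher in control hearts, with no overlap in either, and without Control_6w replicate 3 the control difference was 0.51. Dendritic cell genes (12 genes) summed to 104.9 ± 30.1 CPM in Control_1d and 69.8 ± 7.36 CPM in IRR_1d, and at 6 weeks to 99.8 ± 28.98 CPM in controls and 156.7 ± 29.04 CPM after irradiation (SD, n = 3, 3, 4 and 4). By the fitted value 4 of the 12 were higher at 1 day and 9 at 6 weeks, and edgeR called 0 in both. At an unadjusted p under 0.05 without the fold rule 3 and 1 passed. These counts have no share over all genes beside them, so nothing is read from them. Of the 12 markers Siglech was the only one with 0 counts in every IRR_1d library, against 0.820 ± 0.726 CPM in Control_1d (SD, n = 3), and the groups overlapped. The class II sum per dendritic cell CPM overlapped between irradiated and control hearts at both times. At 1 day IRR_1d replicate 3 alone made the overlap, at 2.61 against 1.37 and 1.72 in the other irradiated hearts and 2.52 to 3.36 in Control_1d, and without it the log2 difference went from -0.65 to -0.91. At 6 weeks Control_6w replicate 3 alone made the overlap, at 9.73 against 2.70 to 4.96 in the other controls and 6.68 to 8.96 in IRR_6w, and without it the log2 difference went from 0.61 to 0.93. The part of each cell type in the class II values was not tested.

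Within the groups the class II genes did not all go with the same cell type. Deviations of log2(CPM + 1) from the group means were set against those of the summed lists over the 14 libraries, as a description with no test. These libraries share depth and the few libraries named above. For H2-Ob and Ciita Pearson's r with B cell RNA was 0.83 and 0.72, with T and NK cell RNA 0.83 and 0.79, with thymus RNA 0.69 and 0.66 and with lung epithelium RNA 0.62 and 0.58. For H2-Oa r was 0.86 with thymus RNA. Control_6w replicate 3 was the highest library in both. It was also the highest Control_6w library for H2-Ob, Ciita and the sums of B cell, T and NK cell, thymus and lung epithelium genes. No r of a single gene was taken without it. H2-Eb1 had an r of -0.03 with B cell RNA, 0.67 with dendritic cell RNA and 0.74 with macrophage RNA. H2-Aa lay between, with 0.23, 0.39 and 0.58. For H2-Ab1, which pairs with H2-Aa, r was 0.39 with B cell RNA, -0.07 with macrophage RNA and 0.63 with T and NK cell RNA. For the class II sum as a whole r was 0.36 with B cells, 0.12 with dendritic cells, 0.32 with macrophages and 0.49 with T and NK cells, and without the 2 libraries farthest from the median of each list it was 0.39, 0.10, 0.53 and 0.31.

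Between the genes themselves, deviations from the group means were taken on another scale, log2 CPM with TMM and a prior count of 2. They gave an r of 0.86 for Ciita with H2-Ob, 0.75 with H2-DMb1, 0.70 with Cd74, 0.58 with H2-Ab1, 0.34 with H2-Aa and -0.05 with H2-Eb1. The chains of I-A, H2-Aa and H2-Ab1, had an r of 0.41, and H2-Aa with H2-Eb1 0.71. H2-DMa with H2-DMb1 had an r of 0.41, and H2-Oa with H2-Ob 0.63.

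The class II region also holds genes of class I presentation, which gave a comparison at the same place on the chromosome. Psmb8 and Psmb9 are subunits of the immunoproteasome, and Tap1 and Tap2 carry its peptides into the endoplasmic reticulum. At 1 day the log2 fold changes were 1.53 (SE 0.932) for Psmb9, 0.96 (SE 0.514) for Tap1, 0.77 (SE 0.664) for Psmb8 and 0.04 (SE 0.355) for Tap2, while the class II genes on either side were below 0. At 6 weeks they were -0.19 (SE 0.781), 0.85 (SE 0.443), 0.86 (SE 0.569) and 0.23 (SE 0.306), with a median of 0.54. Without Control_6w replicate 3 they were 0.62 (SE 0.780), 1.58 (SE 0.342), 1.66 (SE 0.517) and 0.57 (SE 0.272), so that Psmb9 turned direction and the median was 1.10. None of the 4 was called by edgeR in either contrast (edgeR adjusted p = 1 for each at 1 day and at least 0.62 at 6 weeks), and 0 passed an unadjusted p under 0.05. Without that library none was called either, and Psmb8 and Tap1 at 6 weeks and Tap1 at 1 day passed an unadjusted p under 0.05. The unadjusted p was used here without the fold rule and with no share over all genes, so nothing is read from it. Brd2, a bromodomain protein, and Gm15821 were the other tested genes of the interval and were not called either.

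**Figure D4:**
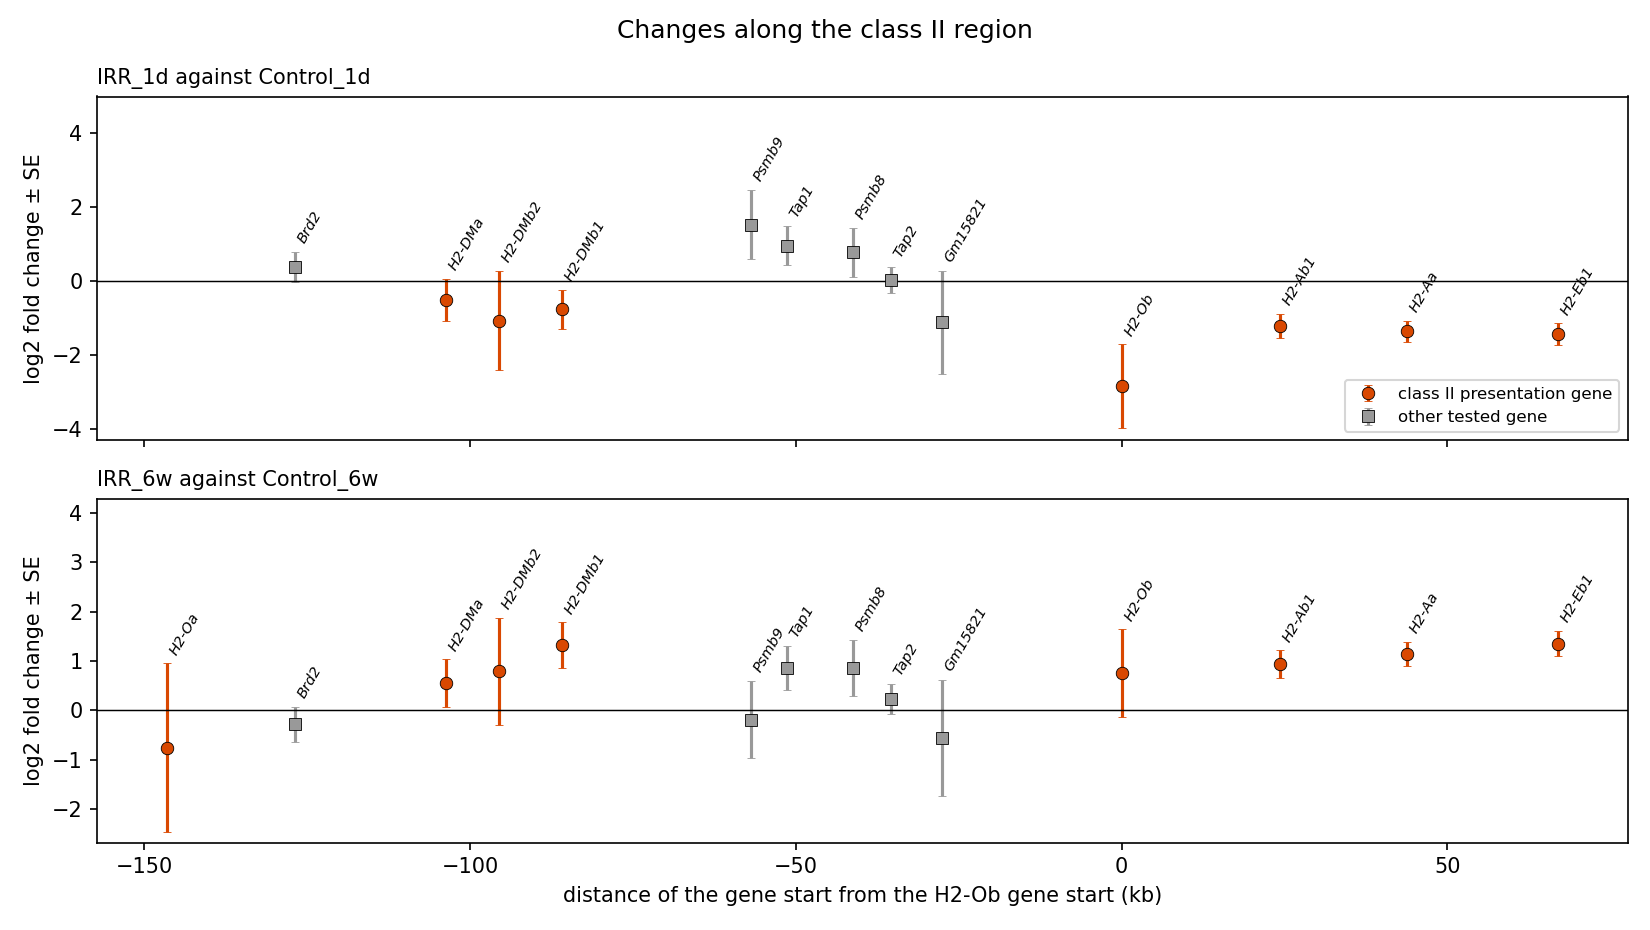
Log2 fold change ± SE (vertical, edgeR) of the tested genes between H2-Oa and H2-Eb1, placed by the distance of their start from the start of H2-Ob in kb (horizontal), for irradiated against control hearts at 1 day (upper panel) and at 6 weeks (lower panel). At 1 day, where H2-Oa is not drawn, the class II genes lie below 0 and Psmb9, Tap1 and Psmb8 between them above 0, with wide bars for H2-DMb2, H2-Ob and Gm15821.

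Other genes of the pathway were described from lists of processing, transcription and recognition genes. Of 12 tested processing genes, 8 were higher in IRR_1d with 0 called, and 10 were higher in IRR_6w with 1 called by edgeR. Ctss, the protease that trims Cd74 in antigen-presenting cells, rose from 29.3 ± 4.27 to 108.5 ± 16.9 CPM at 6 weeks (SD, n = 4 and 4, a fitted 1.66 in log2 units, SE 0.257, edgeR adjusted p = 0.0188). This call was kept in 9 of 14 fits that left out 1 library and was lost when Control_6w replicate 1 or 2, or any of IRR_6w replicates 2, 3 and 4, was absent (edgeR adjusted p up to 0.115). At 1 day Ctss was at 26.5 ± 15.2 in Control_1d and 30.0 ± 9.98 CPM in IRR_1d (SD, n = 3 and 3, a fitted 0.18 in log2 units, SE 0.290, edgeR adjusted p = 1), so it did not share the lower values of Cd74. Lgmn, the asparagine endopeptidase that starts the cleavage of Cd74, had log2 fold changes of 0.64 (SE 0.346) at 1 day and 0.83 (SE 0.3003) at 6 weeks. Cd63, a membrane protein of late endosomes, was at 0.87 (SE 0.399) and Ifi30, a thiol reductase of the same compartment, at 0.85 (SE 0.488) at 1 day. None of these 3 was called in either contrast.

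Of 18 tested genes of class II transcription and interferon-γ input, 8 were higher in each of the irradiation contrasts. In both edgeR called 0. At an unadjusted p under 0.05 without the fold rule 4 passed at 6 weeks and 0 at 1 day. These counts have no share over all genes beside them, so nothing is read from them. Without Control_6w replicate 3, 10 of 18 were higher at 6 weeks with 0 called, and the median went from -0.23 to 0.16. Ifng had 0 counts in all libraries. Spi1, the macrophage and B cell factor PU.1, was at 1.502 on the log2 scale at 6 weeks (SE 0.329, edgeR adjusted p = 0.0776) with no overlap between groups, and Irf8 at 1.36 (SE 0.472). Rfxap, a subunit of RFX, was at -1.37 (SE 0.437) at 6 weeks with overlap. At 1 day Prdm1, a repressor of Ciita, was at -1.14 (SE 0.664) and Ifngr1, a chain of the interferon-γ receptor, at -0.47 (SE 0.340).

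Of 10 tested genes of recognition and costimulation, 4 were higher at 1 day and 5 at 6 weeks, and edgeR called 0 in both. At an unadjusted p under 0.05 without the fold rule 1 and 4 passed. These counts have no share over all genes beside them, so nothing is read from them. Without Control_6w replicate 3, 8 of 10 were higher at 6 weeks and the median went from 0.10 to 0.59. Cd80 and Cd86 are the ligands of CD28 on antigen-presenting cells. Cd80 was at 1.36 ± 1.19 CPM in Control_1d and 12.3 ± 1.64 CPM in IRR_1d (SD, n = 3 and 3, a fitted 2.94 in log2 units, SE 0.973, edgeR adjusted p = 1). Cd86 had log2 fold changes of -0.81 (SE 0.563) at 1 day and 1.82 (SE 0.497, edgeR adjusted p = 0.161) at 6 weeks, and Cd83, a protein that holds class II at the surface, was at -0.85 (SE 0.541) at 1 day. Cd40 was at 1.94 (SE 0.664) at 6 weeks. Cd4 was at -4.03 (SE 1.52), with a control SD of 135 CPM around a mean of 69.6 CPM that Control_6w replicate 3 made.

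Among the cell type lists edgeR called only Ccr2 at 6 weeks, named after its values were seen. This receptor of recruited monocytes rose from 6.11 ± 2.09 to 80.5 ± 37.8 CPM (SD, n = 4 and 4, a fitted 3.49 in log2 units, SE 0.569, edgeR adjusted p = 0.0250). This call was kept in 9 of 14 fits that left out 1 library and was lost when any of Control_6w replicates 1, 2 and 4, or IRR_6w replicate 3 or 4, was absent (edgeR adjusted p up to 0.126). Of 17 tested macrophage and monocyte genes, 13 were higher at 1 day and 16 at 6 weeks, with medians of 0.62 and 1.09. The 3 with most CPM had log2 fold changes of -0.22 and 1.27 for Lyz2, 0.20 and 1.12 for Mrc1, and -0.05 and 0.82 for Csf1r. Of 19 tested B cell genes 3 were higher at 1 day and 18 at 6 weeks, with medians of -2.74 and 0.81. Without Control_6w replicate 3 the median at 6 weeks was 2.24 over 17 tested genes. Of 12 dendritic cell genes 4 and 9 were higher. Of 9 tested T and NK cell genes 3 and 1 were higher, of 4 thymus genes 0 and 0, of 4 lung epithelium genes 1 and 3, of 8 cardiomyocyte genes 2 and 0, and the 1 tested gene of lymphoid stroma, Cxcl13, was higher at both times. The T and NK cell and thymus values at 6 weeks were set by Control_6w replicate 3, and without it, a fit chosen after the data were seen, 9 of 9 T and NK cell genes and 2 of 4 thymus genes were higher in IRR_6w, with 0 called.

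The tested genes outside the set whose log2 CPM was most like the mean of the 10 genes over the 14 libraries were Igha (Pearson's r = 0.93), Dnajb1 (0.91), Il4ra (0.91), Mapk11 (0.85), H2-Q6 (0.84), Cytip (0.84), Hspa1a (0.84), Il2rb (0.84), Baz1a (0.84) and Tpm3 (0.83). This likeness includes the differences between the 4 groups and is a description over libraries with no test. Igha, the constant region of IgA, had means of 0.683, 0.0410, 40.3 and 38.6 CPM, taking both groups of 1 day and then both of 6 weeks with the control first, so it differed more by time than by irradiation in these means. Il4ra, a receptor chain for interleukin 4, had means of 23.0, 20.8, 37.2 and 64.4 CPM, and Dnajb1, a heat shock co-chaperone, of 32.5, 20.9, 49.9 and 71.1 CPM. H2-Q6, a class I gene outside the class II region, was at 18.5 and 18.8 CPM at 1 day and at 36.0 and 93.5 CPM at 6 weeks.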

How the data were processed

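Heart tissue RNA of 14 mice was measured. The submitters' processing notes name FastQC 0.11.8, Trim Galore 0.6.1, STAR 2.5.0a and mm10, and the study's methods name HTSeq as counter. The authors deposited whole-number counts per gene that were not normalized, with a gene length whose origin, like the strandedness and annotation release, is not given in the sources used here. Of the 54409 gene identifiers found in GENCODE M21, 98.3% lay at the same coordinates. Among the members H2-DMb1, H2-Oa and Ciita did, and the others did not. The shares of exon bases in common with other genes were taken from GENCODE M21. CPM scales each count to the total of its library, and FPKM further divides by the deposited gene length. By counting alone 0 counts allow up to 3 at 95% confidence.

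The members and gene lists were chosen with earlier results of these data known. The quasi-likelihood test of edgeR 4.0.16 (R 4.3.3) was fitted to the counts of all 4 groups, after filterByExpr and with TMM scaling. All 10 members passed the filter, H2-Oa through a few 6-week libraries. A call needed an adjusted p under 0.05 over the 16034 tested genes and a fold above 2 or under 0.5. With totals instead of TMM as the scale, the median over the tested genes lay higher on the log2 scale by 0.08 for the 1-day contrast, by 0.23 for the 6-week contrast, by 0.16 in the controls over time and by 0.32 in the irradiated hearts over time. DESeq2 1.42.0, limma 3.58.1 (voom), other scalings and filters, a replicate block, single libraries left out and B cell RNA as a covariate were alternatives. The fits were tested on simulated data.

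Named were all members, the called genes of each non-cell-type list or else its 3 genes with the smallest p, at most 3 genes of each cell type list (Ccr2, Siglech and Ucp1 were named outside this rule, after their values were seen), the 10 genes most like the members, and the genes between H2-Oa and H2-Eb1. List symbols found on more than 1 row or absent from the table were left out. The likeness used log2 CPM with TMM and a prior count of 2. A gene that this rule would name is not reported here.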

Additional observations from a re-analysis of the deposited data

Results flagged for a closer look

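Several sums and genes had 1 library far from the other 3 of its group (Dixon's test at 95% for 4 libraries, which flags about 1 in 20 groups by chance). In Control_6w replicate 3 these were H2-Oa at 4.14 CPM, H2-Ob at 5.79 CPM, the recognition and costimulation list at 541 CPM, the class I genes inside the class II region at 197 CPM, the B cell list at 797 CPM, the T and NK cell list at 2570.5 CPM, the thymus list at 3177.8 CPM, the lymphoid stroma list at 3.16 CPM and the lung epithelium list at 40.0 CPM. The macrophage and monocyte list was low there, at 408 CPM. In IRR_6w replicate 1 they were the B cell list at 1119.8 CPM, the T and NK cell list at 42.6 CPM, the lymphoid stroma list at 43.4 CPM and the lung epithelium list at 509.9 CPM.

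The irradiation effect had opposite directions at the 2 times, with every irradiated library below the controls at 1 day and above them at 6 weeks, for H2-Aa (change in effect 2.499 on the log2 scale), H2-Ab1 (2.16), H2-Eb1 (2.79) and Cd74 (2.17). The genes were chosen for this pattern, so the tests of the change given in the report are no independent support for it.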

How the results depend on the processing

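Of the members called at 1 day, the count of 0 became 2 with DESeq2 (in brackets here, the share of all tested genes: 0.187%) and 5 at an unadjusted p with the same fold rule (2.23%), which holds for each unadjusted count here. At 6 weeks the count of 1 became 0 with limma-voom (0.112%), with only the groups compared (0.0890%) and with the replicate block (0.0437%), 2 with DESeq2 (2.06%), with the B cell covariate (0.861%) and without the 3 libraries that stand apart (1.13%), which are those with counts of Ucp1: Control_6w replicate 3, IRR_6w replicate 1 and IRR_1d replicate 3. It became 3 without the 3 libraries richest in B cell RNA (1.73%) or at an unadjusted p (5.43%). Between the irradiated groups the count of 4 became 3 with only the groups compared (0.0399%), 6 without the libraries richest in B cell RNA (1.80%), 7 with DESeq2 (0.911%) and 10 at an unadjusted p (3.85%). For the change in effect the count of 0 became 1 with the covariate (0.0374%), 2 without the filter (0.0303%) and without the 3 libraries that stand apart (0.182%), 3 without those richest in B cell RNA (0.106%), 4 with DESeq2 (0.268%) and 7 at an unadjusted p (2.86%). The list genes called went with DESeq2 from 0 to 1 at 1 day, from 2 to 8 at 6 weeks, from 0 to 7 between the irradiated groups and from 0 to 3 for the change in effect. The causes were not tested.

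With single libraries left out, the members called ranged from 0 to 0 at 1 day, 0 to 2 at 6 weeks and 3 to 5 between the irradiated groups. They ranged from 0 to 0 between the controls and 0 to 2 for the change in effect. In the same order, the shares of all tested genes called in these fits were 0 to 0.0706%, 0 to 0.627%, 0.0176 to 0.231%, 0 to 0% and 0 to 0.0192%. The medians ranged from -1.42 to -0.86, 0.76 to 1.25, 2.91 to 3.18 and 0.49 to 0.89 in the order 1 day, 6 weeks, irradiated and control groups. These medians include H2-Oa in the fits that tested it. The B cell difference ranged from -2.69 to -0.57 at 1 day and from 0.34 to 2.35 at 6 weeks, and the log2 ratio of class II to B cell RNA from -0.43 to 1.22 and from -0.95 to 1.00.

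Replicate numbers are shared between groups, and the labels do not say that they pair mice. Same-numbered deviations correlated at -0.16, 0.04 and -0.08 at 1 day and at -0.36, 0.37, -0.18 and 0.04 at 6 weeks. At both times only control replicate 2 had its best match in the irradiated library of the same number. These values do not settle whether the numbers mark a pairing. The replicate block took the calls over all genes from 4 to 0 at 1 day and from 41 to 7 at 6 weeks. Of single members, H2-DMb2 at 1 day was 0.33 with limma-voom and 0.07 with the block, and H2-Oa at 6 weeks was -0.76, but 0.28 with the covariate, 0.66 with limma-voom and 1.77 with the block.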
